A study of Glycine max with 12 samples.

Results

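Chalcone synthase is encoded in soybean by a family of near-identical genes, several of which are clustered on chromosome 8 at the I locus. The 6 genes described here are the listed chalcone synthases that lie elsewhere, Glyma.01G228700, Glyma.11G011500, Glyma.05G153200, Glyma.09G075200, Glyma.02G130400 and Glyma.01G091400. They were chosen by identifier from a list of 14 chalcone synthases, and are 6 of the 56044 genes in the deposited expression table. The other 8 genes of the list lie on chromosome 8. Each identifier carries its chromosome number, so the 6 genes are spread over chromosomes 1, 2, 5, 9 and 11. All 6 were found in the table, and each gene was represented by its transcript model with the longest cDNA. The assignment to chalcone synthase rests on recalled identifiers, because neither the table nor the reference gene table names them. The reference table lists 8 chalcone synthase symbols outside chromosome 8, in another assembly, and pairs none with a Glyma identifier. The coding lengths can be checked, and they were alike. The table gives 389 amino acids for Glyma.01G228700 and 388 for Glyma.05G153200, Glyma.09G075200, Glyma.02G130400 and Glyma.01G091400. Glyma.11G011500 has a pair of models with nearly the same cDNA length, 1744 and 1740 bases. The longer one, used here, has a coding length of 326 amino acids and the shorter one 389.

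Chalcone synthase condenses p-coumaroyl-CoA with malonyl-CoA into naringenin chalcone, the first committed step of flavonoid synthesis. Flavonoids include the anthocyanins and proanthocyanidins that darken pigmented soybean seed coats. In yellow seed coats the I locus is known to give rise to small RNAs that lower chalcone synthase transcripts, including those of family members outside the locus. No separate role is stated here for any of the 6 genes.

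The libraries came from immature seed coats of Glycine max, from seeds of 100 to 200 mg fresh weight grown in a greenhouse and preserved by lyophilization. Of the lines, Clark 8 is i-k at the I locus with K1, whereas Clark 18a is i-i with k1. Both lines make chimeric coats, and in both the part destined to become the black saddle was dissected from the part destined to stay yellow. Polyadenylated RNA was sequenced in 3 libraries for each of the 4 groups, 12 in all. Because I and K1 alleles both vary between the lines, their parts in a line difference cannot be told apart. The labels call the replicates biological repeats without saying whether they were separate plants, so p-values measure only the spread between these samples. In RNA from dissected tissue, fewer cells of a type and less RNA per cell cannot be told apart. The tissue labels could not be checked against cell type markers, since no table used here annotates the marker identifiers.

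Levels are given in RPKM, hits corrected for cDNA length and for library depth, so genes of different length can be compared. Recovered hits totalled 83123127 to 192296346 per library. The 4 libraries of repeat 3 had 83123127 to 89505760 hits and the other 8 had 118123345 or more. The library numbers in the labels are 72 to 75 for repeats 1 and 2 of Clark 8, 54 to 57 for repeats 1 and 2 of Clark 18a, and a single run of 4 later numbers for repeat 3 of both lines. In repeats 1 and 2 the line and the number series therefore cannot be told apart, whereas both regions of a line fall within 1 series. Repeat 3 is therefore set beside the main line comparisons.

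The 6 genes differed in level by about 3 orders of magnitude. Glyma.01G228700 and Glyma.11G011500 were the abundant pair, with means of 301 and 186 RPKM in the black region of Clark 8. Glyma.05G153200 followed at 6.95 RPKM, Glyma.01G091400 at 1.79 RPKM, Glyma.09G075200 at 1.23 RPKM and Glyma.02G130400 at 0.208 RPKM. The order was the same in all 12 libraries. The drop from Glyma.11G011500 to Glyma.05G153200 was 26.8-fold in the black region of Clark 8 and 58.4-fold in that of Clark 18a, and 12.96-fold and 16.5-fold in the yellow regions of Clark 8 and Clark 18a. Ranges of Glyma.11G011500 and Glyma.05G153200, and of Glyma.05G153200 and Glyma.01G091400, did not overlap in any group. Glyma.01G228700 and Glyma.11G011500 overlapped in range in 3 of the 4 groups, as did Glyma.01G091400 and Glyma.09G075200, the exception each time being Clark 8 black. Glyma.09G075200 and Glyma.02G130400 overlapped in both regions of Clark 18a.

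**Figure D1:**
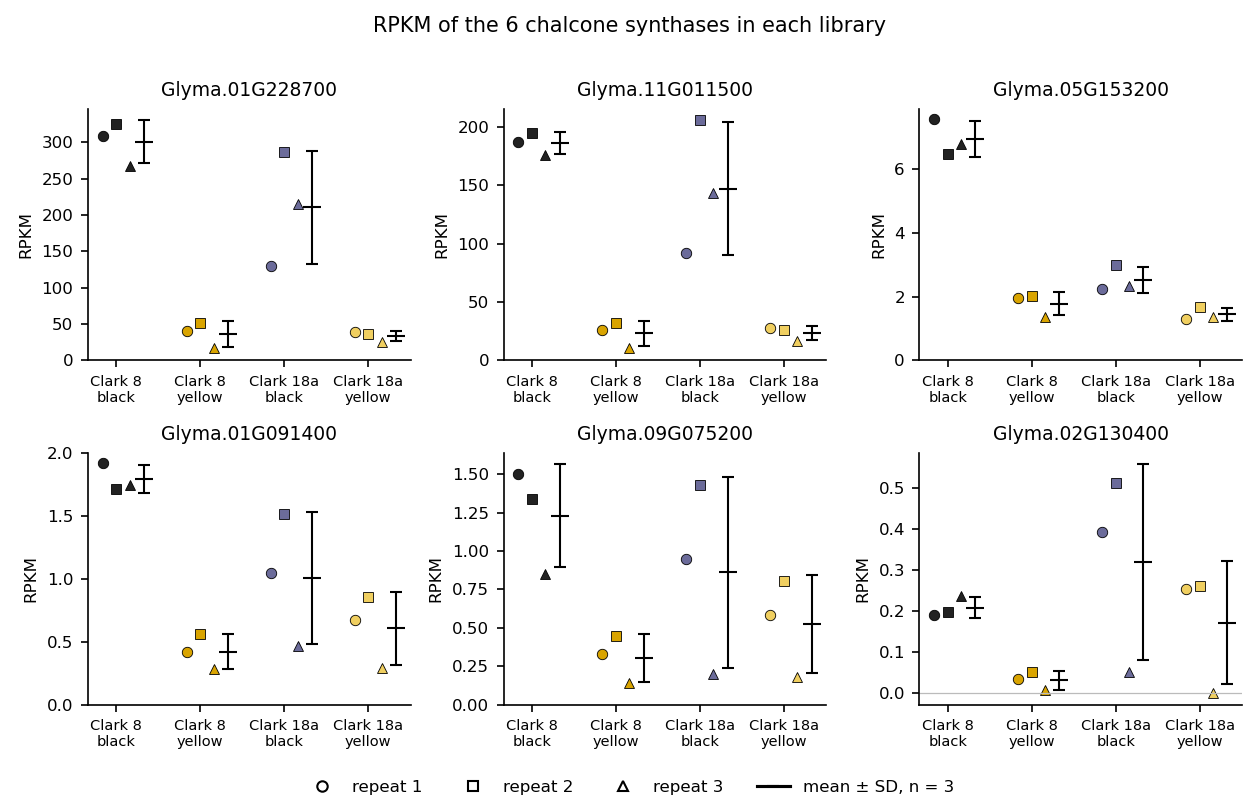
RPKM of each of the 6 genes (y axis, linear and scaled per gene) in the 3 libraries of each group (x axis); marker shapes are repeats 1 to 3, and the bar beside them is the mean ± SD. Black libraries stand above yellow ones of the same line for Glyma.01G228700, Glyma.11G011500 and Glyma.05G153200, while the 3 lowest genes overlap between the regions in Clark 18a.

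Glyma.01G228700 was high in the black region of both lines and much lower in the yellow region. In the black region of Clark 8 its 3 libraries held 310, 325 and 268 RPKM (301 ± 29.7, SD, n = 3). The yellow region of Clark 8 held 41.1, 50.9 and 16.6 RPKM (36.2 ± 17.6). In Clark 18a the black region held 130, 287 and 215 RPKM (211 ± 78.3) and the yellow region 39.5, 36.4 and 25.7 RPKM (33.9 ± 7.21). Every black library exceeded every yellow one, and the ranges of the lines overlapped in both regions. Ranked by RPKM among the 56044 genes, it stood between 75 and 216 in black libraries and between 831 and 3890 in yellow ones. The ratio of mean RPKM, black over yellow, was 8.31 in Clark 8 and 6.22 in Clark 18a.

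Glyma.11G011500 gave the same picture at a lower level. Its black libraries of Clark 8 held 188, 195 and 176 RPKM (186 ± 9.41, SD, n = 3) and its yellow ones 26.2, 32.2 and 10.95 RPKM (23.1 ± 10.97). In Clark 18a the black region held 92.3, 206 and 144 RPKM (147 ± 56.9) and the yellow region 28.2, 26.2 and 16.9 RPKM (23.8 ± 5.99). The regions again did not overlap and the lines did. The mean RPKM in black was 8.06 times that in yellow in Clark 8 and 6.20 times in Clark 18a. Over the 12 libraries the log2 levels of the pair correlated at Pearson r = 0.998, a description over libraries that share line, region and depth. The pair may share reads, since how hits to several genes were treated is not given in the sources used here, so the split between them is less certain than their sum.

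Glyma.05G153200 was lower again, and among the 5 genes tested it was the one called between the lines. The 3 black libraries of Clark 8 held 7.58, 6.47 and 6.80 RPKM (6.95 ± 0.568, SD, n = 3), and the yellow ones 1.97, 2.02 and 1.37 RPKM (1.78 ± 0.361). The black libraries of Clark 18a held 2.25, 2.99 and 2.32 RPKM (2.52 ± 0.406), and the yellow ones 1.31, 1.67 and 1.35 RPKM (1.44 ± 0.196). Black exceeded yellow without overlap in each line, and black Clark 8 exceeded black Clark 18a without overlap. In the yellow region the lines overlapped. These values rest on 231 to 1863 hits per library. Some of the hits may be shared with the chromosome 8 genes, of whose summed RPKM this gene made up 4.02% to 8.07%. Whether shared hits contribute to its difference between the lines was not tested. Its ratio to the chromosome 8 sum is given below.

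Glyma.01G091400 was low everywhere. Its black libraries of Clark 8 held 1.92, 1.71 and 1.74 RPKM (1.79 ± 0.112, SD, n = 3) and its yellow ones 0.417, 0.563 and 0.284 RPKM (0.421 ± 0.140). In Clark 18a the black region held 1.05, 1.51 and 0.463 RPKM (1.01 ± 0.527) and the yellow region 0.669, 0.859 and 0.291 RPKM (0.607 ± 0.289). The regions were separate in Clark 8 and overlapped in Clark 18a, where repeat 3 was the lowest library of each region. In black, all 3 Clark 18a libraries lay below all 3 of Clark 8.

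Glyma.09G075200 ran close to it, with r = 0.944 over the 12 libraries. Its black libraries of Clark 8 held 1.4999, 1.34 and 0.852 RPKM (1.23 ± 0.337, SD, n = 3) and its yellow ones 0.329, 0.448 and 0.137 RPKM (0.305 ± 0.157). In Clark 18a the black region held 0.947, 1.43 and 0.201 RPKM (0.860 ± 0.620) and the yellow region 0.582, 0.807 and 0.177 RPKM (0.522 ± 0.319). Repeat 3 was the lowest library in all 4 groups, and in Clark 18a it was low enough that the regions overlapped.

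Glyma.02G130400 was the lowest of the genes, with 0 to 108 hits per library. It was near the limit of detection in Clark 8 yellow and in repeat 3 of Clark 18a. In Clark 8 it held 0.190, 0.197 and 0.238 RPKM in black (0.208 ± 0.0259, SD, n = 3) and 0.0332, 0.0525 and 0.00748 RPKM in yellow, the last from 1 hit. In Clark 18a it held 0.392, 0.513 and 0.0524 RPKM in black and 0.254, 0.262 and 0 RPKM in yellow. The library at 0 allows up to 0.0214 RPKM, the worth of 3 hits, which covers counting error only. In Clark 18a, repeats 1 and 2 held 64 to 108 hits in each region, while repeat 3 held 7 hits in black and 0 in yellow. The regions were separate in Clark 8 and overlapped in Clark 18a.

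Differences were tested with limma on log2(RPKM + 1), over 30775 genes with at least 1 RPKM in at least 3 libraries. A gene was called at a Benjamini-Hochberg adjusted p under 0.05, two-sided. Because 1 is added to each value, the log2 differences understate changes of the low genes. Of the 6 genes, 5 passed the filter and Glyma.02G130400 did not. Glyma.09G075200 passed with 3 libraries and Glyma.01G091400 with 5, all of them black, so the filter itself favoured a region difference in these 2 genes.

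Between the regions of Clark 8, 4 of the 5 genes tested rose in black and none fell. Over all genes tested, 13.9% were called, 7.51% higher in black and 6.35% lower. The log2 difference was 3.16 (SE 0.39, limma adjusted p = 0.00036) for Glyma.01G228700 and 3.08 (SE 0.38, limma adjusted p = 0.00036) for Glyma.11G011500. That of Glyma.05G153200 was 1.52 (SE 0.13, limma adjusted p = 3.8e-05) and that of Glyma.01G091400 was 0.98 (SE 0.20, limma adjusted p = 0.0075). Each was positive in 3 of 3 repeats. Glyma.09G075200 was 0.77 higher (SE 0.25, limma adjusted p = 0.071), positive in 3 of 3 repeats but not called. It was called in 6 of 25 alternatives, among them the repeat number as a block (limma adjusted p = 0.0057) and array weights (0.0024). Others were only the 6 libraries compared (0.021), no repeat 3 libraries (0.014) and no repeat 3 of Clark 18a black (0.023). Over all alternatives its adjusted p ran from 0.0022 to 0.20. The block also raised the share of all genes called from 13.9% to 24.3%. Without any filter the call of Glyma.01G091400 stood (limma adjusted p = 0.010, within a range of 0.00021 to 0.030 over its alternatives), and Glyma.02G130400 differed by 0.23 (limma adjusted p = 0.30, not called). The median log2 difference of the 5 genes was 1.52, beside -0.07 for all genes tested. That median is the value of Glyma.05G153200. Among the 5, Glyma.01G091400 and Glyma.09G075200 had passed the filter through black libraries only, so the medians are not compared on equal terms.

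Between the regions of Clark 18a, 3 of the 5 genes rose in black and none fell, where 15% of all genes were called, 8.86% higher in black and 6.11% lower. The log2 difference was 2.55 (SE 0.39, limma adjusted p = 0.0014) for Glyma.01G228700 and 2.54 (SE 0.38, limma adjusted p = 0.0012) for Glyma.11G011500. Repeat 1 gave the smallest difference of each, 1.70 and 1.68, where the other two repeats gave 2.93 to 3.02. Glyma.05G153200 rose by 0.53 (SE 0.13, limma adjusted p = 0.021), with 0.50, 0.58 and 0.50 in the 3 repeats. That call was lost without repeat 2 of black (limma adjusted p = 0.079), repeat 1 of yellow (0.080) or repeat 3 of yellow (0.059), and its adjusted p ran from 0.0048 to 0.093 over all alternatives. Glyma.01G091400 differed by 0.30 (limma adjusted p = 0.35) and Glyma.09G075200 by 0.25 (limma adjusted p = 0.57), neither called. A block within line, an alternative chosen after seeing the data, called Glyma.01G091400 here (limma adjusted p = 0.043, the lowest over its alternatives, which ran to 0.76). The median of the 5 was 0.53, beside -0.02 for all genes, and the block raised the share of all genes called to 25.7%.

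**Figure D2:**
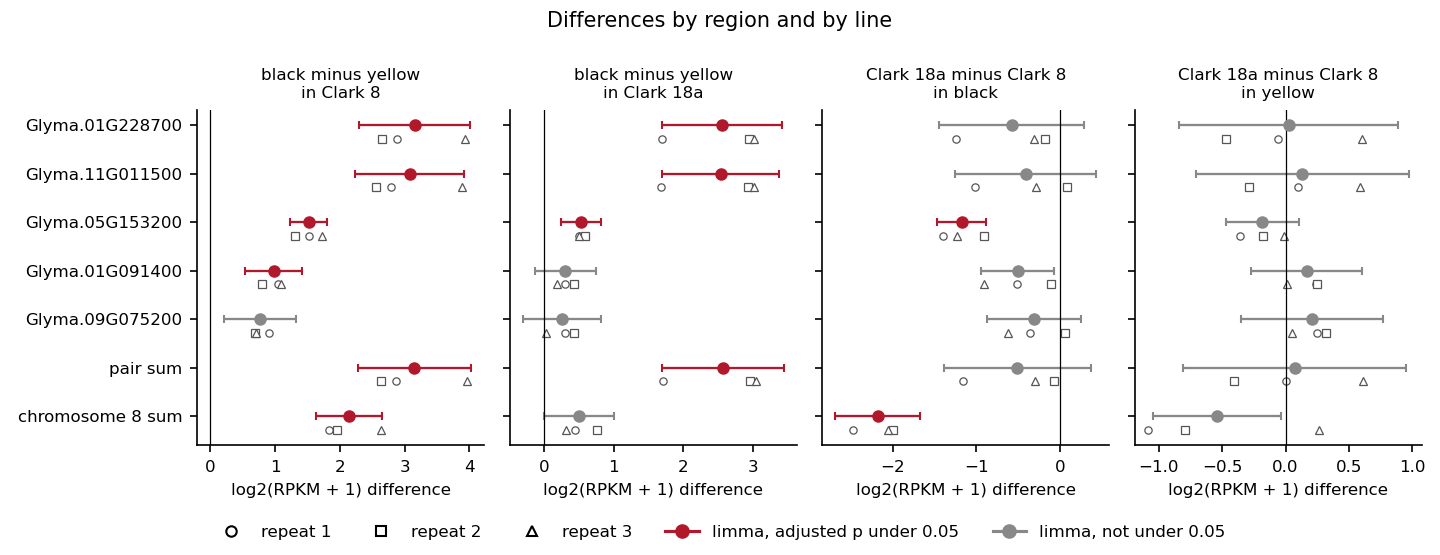
Differences in log2(RPKM + 1) (x axes, scaled per panel) for the 5 genes tested, the summed pair and the summed chromosome 8 genes (rows), by region in each line and by line in each region. Large points are limma estimates with 95% intervals, red where the adjusted p was under 0.05, and small open markers are repeats 1 to 3; only Glyma.05G153200 and the chromosome 8 sum are red between the lines, both in black.

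Between the lines in the black region, 1 of the 5 genes was called and it was lower in Clark 18a, against 0.0812% of all genes called, 0.0617% lower and 0.0195% higher. Glyma.05G153200 was lower by 1.18 on the log2 scale (log2 difference -1.18, SE 0.13, limma adjusted p = 0.0041). On the RPKM scale, the mean of Clark 8 was 2.76 times that of Clark 18a. The 3 repeats gave -1.40, -0.91 and -1.23. Repeat 3, whose libraries are numbered together across the lines, thus lay near the mean of repeats 1 and 2 (-1.15). With only the 6 black libraries in the model the call was lost (limma adjusted p = 0.15), and its adjusted p ran from 0.0034 to 0.15 over the alternatives. Glyma.01G228700 differed by -0.58 (95% interval -1.44 to 0.28, limma adjusted p = 0.96) and Glyma.11G011500 by -0.41 (95% interval -1.25 to 0.43, limma adjusted p = 0.98). Repeat 3 alone gave -0.31 and -0.29 for the pair. The 95% intervals hold both no change and a log2 difference below -1, so the pair is not shown to be equal in the lines. Glyma.01G091400 differed by -0.51 (95% interval -0.95 to -0.07, limma adjusted p = 0.88) and Glyma.09G075200 by -0.31 (95% interval -0.87 to 0.25, limma adjusted p = 0.98). In repeat 3 alone these were -0.91 and -0.62, and in repeat 2 they were -0.11 and 0.06. The count of all genes called between the lines depended on repeat 3, and rose from 0.0812% to 4.03% without it. With the block it was 0.169%.

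In the yellow region none of the 5 genes was called by limma between the lines, at log2 differences of -0.18 to 0.21 with adjusted p of 0.60 or more, and none had an unadjusted p under 0.05. Of all genes, 0.413% were called, 0.107% higher and 0.305% lower in Clark 18a, and 11.8% without repeat 3. The pair moved in different directions with the repeat there. The 3 repeats gave -0.06, -0.47 and 0.60 for Glyma.01G228700, whose 95% interval ran from -0.84 to 0.89.

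No gene of the 5 was called in the interaction of line and region, the difference between the region differences, where 0.0162% of all genes were called, 0.00975% above 0 and 0.0065% below. All 5 interaction values were negative, from -0.99 to -0.52, meaning a smaller difference between regions in Clark 18a. For the pair, repeat 2 went the other way, at 0.29 for Glyma.01G228700 and 0.37 for Glyma.11G011500. Glyma.05G153200, Glyma.01G091400 and Glyma.09G075200 were negative in every repeat. Of the 30775 genes tested, 17601 lay above 0. The 5 values are not separate observations, since the pair correlated at r = 0.998 and Glyma.09G075200 with Glyma.01G091400 at 0.944. Of the 5 genes, 2 had an unadjusted limma p under 0.05, beside 767 of all genes tested. The smallest adjusted p was 0.36, for Glyma.05G153200. The region differences above are therefore not shown to differ between the lines for any single gene of the 5. Averaged over the lines, the 4 genes called in Clark 8 were called higher in black again (29.4% of all genes called, 13.7% higher and 15.6% lower). Among these 4, Glyma.01G091400 had passed the filter through black libraries only, which favoured its call. Its limma adjusted p ran from 0.00037 to 0.016 over the alternatives. Glyma.09G075200 was 0.51 higher on that average (limma adjusted p = 0.053). It was called in 8 of 24 alternatives, among them the block (limma adjusted p = 0.0038), quantile normalization (0.044) and median ratio scaling (0.048). Leaving out repeat 3 of Clark 8 black (0.047) or of Clark 18a black (0.0072) also called it. The range was 0.0014 to 0.12 over the alternatives. Like Glyma.01G091400, it had passed the filter through black libraries only. Averaged over the regions, Glyma.05G153200 was called lower in Clark 18a, at -0.68 (SE 0.09, limma adjusted p = 0.012; repeat 3 alone gave -1.23 in black and -0.01 in yellow), where 0.764% of all genes were called, 0.396% lower and 0.367% higher.

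Since reads may be shared within the family, RPKM was also summed within each library. The pair summed to 487 ± 39.0 RPKM in the black region of Clark 8 and 59.3 ± 28.6 in its yellow region, and to 358 ± 135 and 57.6 ± 13.2 in those of Clark 18a (SD, n = 3). The other 4 genes together made 10.2 ± 0.874, 2.54 ± 0.666, 4.71 ± 1.71 and 2.74 ± 0.891 RPKM in the same order. The pair thus held nearly all of the RPKM of the 6 genes in every group. The summed 4 rose by 1.67 between regions in Clark 8 (SE 0.24, limma adjusted p = 0.00092). In Clark 18a they differed by 0.59 (limma adjusted p = 0.13). The block turned that into a call (limma adjusted p = 0.018), as did leaving out repeat 3 of Clark 18a black (0.041), and the alternatives ran from 0.0057 to 0.38. Between the lines in black they differed by -1.01 (SE 0.24, limma adjusted p = 0.45; -1.40 in repeat 3 alone), called with the block (limma adjusted p = 0.039), and the alternatives ran from 0.039 to 1.00. That block assumes that repeat numbers match between the lines.

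The 8 listed genes on chromosome 8 served as the comparison within the family. Of these, 8 of 8 were called higher in black in Clark 8, against 7.51% of all genes. Between the regions of Clark 18a limma called 0 of 8, against 15% of all genes. There 7 of 8 were higher in black, beside 14666 of the 30775 genes tested. An unadjusted limma p under 0.05 was reached by 6 of 8, beside 8771 of all genes tested. The sum of the 8 differed by 0.51 there (limma adjusted p = 0.18), and was called with array weights (0.040) and with the block within line (0.049), in a range of 0.040 to 0.44 over the alternatives. Between the lines in black, 8 of 8 were called lower in Clark 18a, against 0.0617% of all genes. Their sum fell between the lines in black by 2.18 on the log2 scale (SE 0.23, limma adjusted p = 0.0031; -2.06 in repeat 3 alone), beside a difference of -0.51 (SE 0.40, limma adjusted p = 0.98; -0.31 in repeat 3 alone) for the pair. The hits of Glyma.08G110300 and Glyma.08G110900 differed by 0.0772% to 5.81% in a library, so counts of chromosome 8 members may not be counts of independent genes. If reads were counted for each copy they match, the chromosome 8 sum holds them more than once.

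The 6 genes made up most of the RPKM of the 14 listed chalcone synthases in every library, and their share differed by region and by line. Repeated counting of reads among near-identical copies would change this share, so it is not a share of molecules. The list may also miss family members, as the reference table has chalcone synthase symbols on chromosomes 6 and 19, where no listed gene lies. Glyma.08G110400 is not listed and is left out of the share and of the chromosome 8 sum. Its means were 27.4 and 6.17 RPKM in black and yellow of Clark 8, and 5.65 and 3.69 in those of Clark 18a. Counting it would lower the share. The share was 76.1%, 76.7% and 73.1% in Clark 8 black (75.3 ± 1.92, SD, n = 3) and 61.4%, 68.0% and 53.0% in Clark 8 yellow (60.8 ± 7.50). It was 89.1%, 92.7% and 90.2% in Clark 18a black (90.6 ± 1.84) and 77.7%, 74.2% and 58.6% in Clark 18a yellow (70.2 ± 10.1). Within each line the black libraries lay above the yellow ones, by 17.5 percentage points on average (exact permutation of region within line, two-sided, p = 0.005, the smallest p that 400 arrangements allow, adjusted p = 0.015 over 12 tests), in 6 of 6 pairs of the same repeat. The share was 12.4 points higher in Clark 18a (exact permutation of line within region, two-sided, p = 0.015, adjusted p = 0.03), also in 6 of 6 pairs. Both permutations moved libraries without keeping same-numbered ones together, so their p-values leave out the pairing by repeat number. The same holds for the ratios below. The line difference was 14.5 points in black and 11.3 in yellow over repeats 1 and 2. Repeat 3 alone gave 17.1 and 5.62. The adjusted p of the line difference moved to 0.05, no longer a call, on leaving out any 1 of 6 libraries, repeats 1, 2 or 3 of Clark 8 black, repeat 2 of Clark 18a black, or repeats 1 or 2 of Clark 18a yellow. With every repeat 3 library left out the smallest possible p is 0.0556, so no call can be made.

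**Figure D3:**
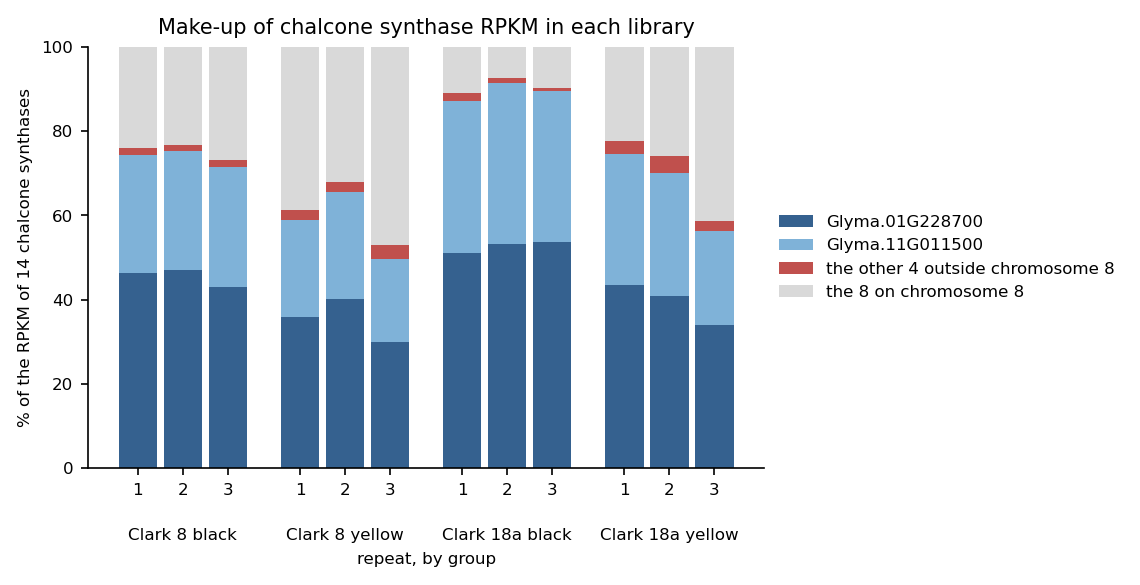
Share of the summed RPKM of the 14 listed chalcone synthases (y axis, %) held by Glyma.01G228700, Glyma.11G011500, the other 4 genes and the 8 on chromosome 8, in each library (x axis, repeats 1 to 3 in each group). The pair makes up most of every black bar, and the grey chromosome 8 part is thinnest in Clark 18a black, where the 6 genes held 89.1% to 92.7%.

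The balance within the pair differed by line in 2 of the 3 repeats. The RPKM ratio of Glyma.01G228700 to Glyma.11G011500 was 1.65, 1.67 and 1.52 in Clark 8 black, and 1.57, 1.58 and 1.52 in Clark 8 yellow. It was 1.41, 1.39 and 1.498 in Clark 18a black, and 1.40, 1.39 and 1.52 in Clark 18a yellow. Pooled, the log2 ratio was 0.14 lower in Clark 18a (log2 difference -0.14, exact permutation of line within region, two-sided, p = 0.005, adjusted p = 0.015), with that sign in 6 of 6 pairs. In repeats 1 and 2 the difference was -0.24 in black and -0.17 in yellow. In repeat 3, where library numbers run together, it was -0.02 in black and -0.0004 in yellow, so the difference did not hold there. Whether it follows the line or the number series of repeats 1 and 2 cannot be told apart. Between regions the log2 ratio differed by 0.02 (exact permutation, p = 0.49, adjusted p = 0.65). Only that test by region was planned for this ratio, and the test by line was added.

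Glyma.05G153200 was also set against the pair and against the chromosome 8 genes. Over the 12 libraries its log2 level correlated at r = 0.963 with the chromosome 8 sum and 0.834 with the summed pair, a description over libraries that share line and region. Against the pair it made up 1.52%, 1.24% and 1.53% in Clark 8 black and 2.92%, 2.43% and 4.96% in Clark 8 yellow. In Clark 18a it made up 1.01%, 0.607% and 0.647% in black and 1.93%, 2.66% and 3.16% in yellow. The log2 ratio to the pair was 1.49 lower in black (log2 difference -1.49, exact permutation, two-sided, p = 0.005, adjusted p = 0.015, 6 of 6 pairs) and 0.66 lower in Clark 18a (-0.66, exact permutation, p = 0.03, adjusted p = 0.045, 5 of 6 pairs). Repeat 3 alone gave line differences of -1.24 in black and -0.65 in yellow, and repeats 1 and 2 gave -0.81 and -0.23. Black libraries thus held less of it per unit of the pair.

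Against the chromosome 8 sum, the log2 ratio of Glyma.05G153200 did not pass the test by region (0.04, exact permutation, p = 0.81, adjusted p = 0.92). That value averages opposite directions, with black lower in Clark 8 (-0.11 over repeats 1 and 2, -0.37 in repeat 3) and higher in Clark 18a (0.19 and 0.46). It was 0.50 higher in Clark 18a (exact permutation, p = 0.02, adjusted p = 0.034), in 5 of 6 pairs. Repeat 3 of the yellow region was the exception. There the gene made up 4.30% of the chromosome 8 sum in Clark 18a and 5.26% in Clark 8. The first and second repeats of yellow gave 6.47% and 7.23% in Clark 18a, against 4.46% and 4.97% in Clark 8. The next lower genes also made up less of the pair in black. Relative to the pair, the log2 ratio of Glyma.01G091400 was 1.46 lower in black (-1.46, exact permutation, p = 0.005, adjusted p = 0.015) and that of Glyma.09G075200 was 1.53 lower (-1.53, exact permutation, p = 0.01, adjusted p = 0.024). By line those ratios differed by -0.05 and 0.12 (exact permutation, adjusted p = 0.92 for both), and these pooled values combine opposite signs. For Glyma.01G091400 repeats 1 and 2 gave 0.09 in black and 0.85 in yellow, and repeat 3 gave -1.61 and -0.59. For Glyma.09G075200 they gave 0.34 and 1.04, and repeat 3 gave -1.77 and -0.26. These ratios to the pair and to chromosome 8 were chosen after values had been seen.

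**Figure D4:**
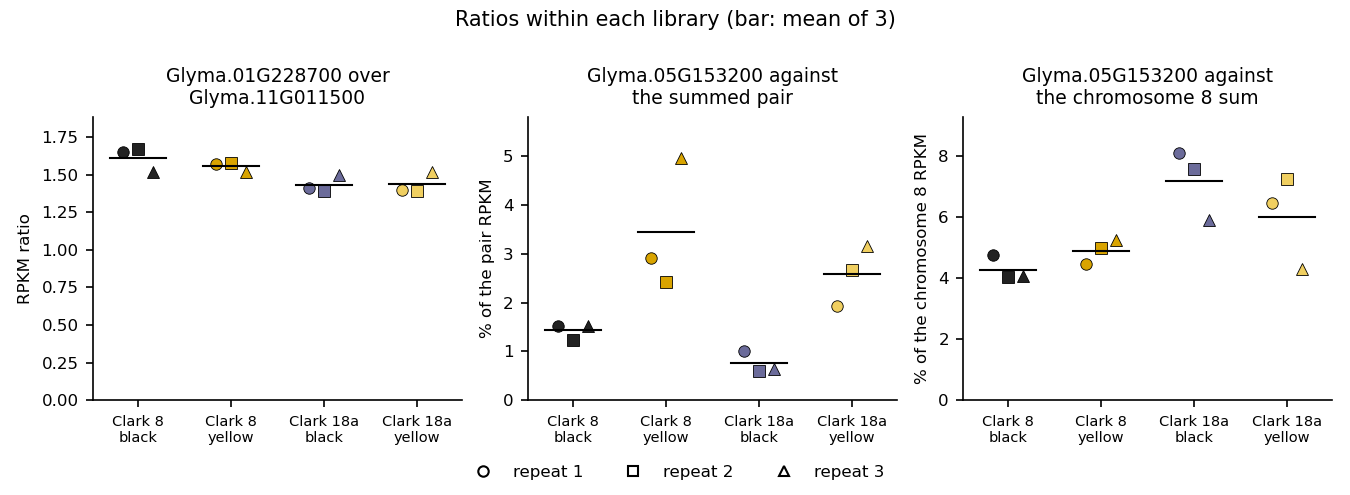
Ratios within each library (y axes, from 0) by group (x axis): RPKM of Glyma.01G228700 over Glyma.11G011500, Glyma.05G153200 as a percent of the summed pair, and Glyma.05G153200 as a percent of the chromosome 8 sum; marker shapes are repeats 1 to 3 and bars are means. In the first panel the lines part in repeats 1 and 2 and meet in repeat 3, at 1.498 to 1.52.

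Among genes not on the list of 14, those whose log2 levels were most like the summed pair over the 12 libraries were Glyma.16G203800 (r = 0.979), Glyma.U010000 (0.975), Glyma.03G162800 (0.974), Glyma.12G087400 (0.971) and Glyma.16G200300 (0.970), among 30762 candidates. Glyma.16G200300 was the most region-bound of these, at 21.4 ± 1.91 RPKM in black and 0.0827 ± 0.108 in yellow in Clark 8, and 15.2 ± 6.61 in black and 0.0338 ± 0.0237 in yellow in Clark 18a (SD, n = 3). Glyma.16G203800 held 5.30 ± 0.382 and 4.79 ± 1.16 RPKM in black and 1.76 ± 0.461 and 1.65 ± 0.249 in yellow, Clark 8 first. Most like Glyma.05G153200 were Glyma.17G054500 (r = 0.975), Glyma.11G073700 (0.969) and Glyma.08G110400 (0.961). Glyma.11G073700 held 18.1 ± 1.04 RPKM in the black region of Clark 8 and 2.66 ± 0.112 in that of Clark 18a, with 2.70 ± 0.382 and 1.07 ± 0.295 in the yellow regions. The identifier of Glyma.08G110400 falls between those of listed chromosome 8 members, and its means (27.4, 6.17, 5.65 and 3.69 RPKM) were close to theirs, so it is not shown to lie outside the family. No table used here names any of these 8 genes, and the correlations are descriptions over libraries that share line and region.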

How the data were processed

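RNA-seq of 12 libraries was analysed from the authors' deposited table of RPKM for 88647 transcript models of 56044 genes, which also gives coding and cDNA lengths per model, per the file headers. The submitters' processing notes name Bowtie 1. Genome build, strandedness and the handling of multiply mapping reads: not given in the sources used here. RPKM times cDNA length came out as whole hits for 100% of values up to 100 hits (tolerance 0.05 of a hit). The total behind RPKM in each library equalled these hits summed over all models, so a read matching several models may be counted more than once and the totals may exceed the reads.

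The model with the longest cDNA represented each gene. The main model was limma 3.58.1 (R 4.3.3) on log2(RPKM + 1) (intensity trend, 1 mean per group, 12 libraries, genes with at least 1 RPKM in at least 3 libraries), with Benjamini-Hochberg adjustment over the 30775 genes tested. Sums were added as rows to that fit. Ratios and shares within libraries were tested by exact permutation within line or region, adjusted over 12 tests. These permutations did not keep same-numbered libraries paired, and no paired permutation was run. An exact test of 3 against 3 libraries cannot give a p below 0.1. The code was tested on simulated data.

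Same-numbered libraries deviated together in each of the 4 comparisons of 2 groups, in 3 of 3 pairs each. The correlations of their deviations were 0.592 to 0.745 between the regions of Clark 8, 0.522 to 0.610 between those of Clark 18a, 0.124 to 0.503 between the lines in black and 0.153 to 0.398 in yellow. Over all 6 pairs of groups, 17 of 18 same-numbered pairs were over 0.1 and the lowest was 0.0362. Between the lines in black, 4 of 6 libraries correlated best with their own number. The repeat number was taken to pair the libraries, from the data and not from a label. Between the lines, a match of repeats 1 and 2 by number is not shown. In black, repeat 2 of Clark 8 correlated at 0.290 with repeat 1 of Clark 18a and at 0.124 with its repeat 2. In yellow these values were 0.288 and 0.153. Pair counts and block calls between the lines thus assume that match. Fits with the repeat number as a block are given where they change a call.

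The members, lists and tests were chosen with earlier results of these data known. The named genes were the 6 members, plus the 5 genes most correlated with the summed pair and the 3 most correlated with each other member of mean RPKM of at least 1. Lists of pathway genes and cell type markers could not be used, because 0 of 59048 lines of the reference table (RefSeq, Glycine_max_v4.0) carry a Glyma identifier. No sequence was analysed here. Alternatives changed the pseudocount, filter, scaling, model, block, weights and libraries, and hits were also fitted with voom.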

Additional observations from a re-analysis of the deposited data

Results flagged for a closer look

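In 2 results every repeat of one region moved one way between the lines and every repeat of the other region moved the opposite way. The direction of each is that of Clark 18a minus Clark 8 in log2(RPKM + 1).

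Glyma.01G091400 differed between the lines by -0.51, -0.11 and -0.91 in the 3 repeats of the black region and by 0.24, 0.25 and 0.01 in those of the yellow region. The difference between those differences was -0.68, and the test of it did not pass (limma adjusted p = 1.00, against 0.0162% of all genes called in the interaction). The gene had 38 to 375 hits per library. Its 0.01 in repeat 3 of yellow came from 41 hits in Clark 18a and 38 in Clark 8, so that sign is not settled.

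The sum of Glyma.05G153200, Glyma.09G075200, Glyma.02G130400 and Glyma.01G091400 differed between the lines by -1.11, -0.53 and -1.40 in black and by 0.03, 0.17 and 0.01 in yellow. The difference between those differences was -1.08, and it did not pass the test either (limma adjusted p = 1.00). Leaving out 1 library gave -0.093 to 0.26 for the sum in yellow, so its sign there is not settled. Within the sum, Glyma.05G153200 was lower in Clark 18a in every yellow repeat (-0.36, -0.18 and -0.01). Glyma.09G075200 and Glyma.01G091400 were higher in every yellow repeat.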

How the results depend on the processing

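Across 866 alternative values of the 5 tested genes, 826 kept direction and side of the threshold, 9 lost a call, 15 gained one and 16 changed sign, none of the last in a called difference. Scaling moved the median of all genes by at most 0.05 (log2). The number of the 5 genes called between the lines in black went from 1 to 0 with a minimum RPKM of 5 or with only the 6 libraries compared, and the number averaged over regions went from 1 to 0 with a minimum RPKM of 5. Without repeat 3 the pair ratio by line was -0.21, the share by region 13.3 points and the share by line 12.9 points, all with an adjusted p of 0.095, where the number of libraries allows no call. Leaving out 1 library each gave 10.4 to 15.2 points for the share by line. The pair ratio by region was -0.022 with the model of the longest coding sequence, an alternative chosen after seeing the data.

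Between the lines in yellow, signs turned with array weights (Glyma.01G228700 -0.33, Glyma.11G011500 -0.18, pair sum -0.27) and without repeat 3 (-0.27, -0.10 and -0.20). Leaving out 1 library gave -0.45 to 0.33, -0.31 to 0.43 and -0.40 to 0.38 for these, and -0.093 to 0.26 for the sum of the other 4. Averaged over regions, Glyma.09G075200 was 6.85e-05 with voom, 0.0012 with array weights and 0.067 without repeat 3, and -0.16 to 0.092 without 1 library. Glyma.11G011500 was -0.36 to 0.0088 without 1 library, and the pair sum 0.0047 with quantile normalization. The causes were not tested.

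The replicate block called Glyma.09G075200 between the regions of Clark 8 (log2 difference 0.77, adjusted p = 0.0057) and averaged over the lines (0.51, adjusted p = 0.0038, range 0.0014 to 0.12), and changed no other call of a member. The replicate block within line, chosen after seeing the data, called Glyma.01G091400 between the regions of Clark 18a as well (0.30, adjusted p = 0.043, range 0.043 to 0.76). Counts of all genes called were more sensitive. Leaving out 1 library gave 14 to 509 calls between the lines in yellow (127 with all), 17 to 45 in black (25), 0 to 7 in the interaction (5) and 54 to 1407 averaged over the regions (235).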
